A study of Mus musculus with 16 samples.

Results

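The complement system of muscle stromal cells was followed through 9 genes, taken by symbol from a count table of 52997 gene symbols. These were the proteases and components C1ra, C1s1, C2, C3, C4b, C7 and Cfb, and the regulators Serping1 and Clu. All 9 were found, and all 9 were among the 13949 genes with enough reads to be tested. The cells, sorted in 2 rounds from hindlimb muscle of C57BL/6 mice at 8 weeks of age, were mesenchymal stromal cells (mSC), which form the connective tissue between muscle fibres. All 4 groups were of that strain and age and were injected into the peritoneal cavity. One pair of groups received phosphate-buffered saline (PBS) and the other calcitonin gene-related peptide (CGRP), a neuropeptide of sensory nerve endings, and mSC were taken 4 h or 8 h later. Each group had 4 biological replicates, so 16 libraries of 1000 cells. The sources used here do not state whether mice were pooled for a replicate, nor the dose of CGRP or the sorting gate.

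Complement is a cascade of plasma proteases that marks and lyses targets. In the classical pathway C1q binds a target, the proteases C1r and C1s are activated on it, and C1s cuts C4 and C2, whose fragments form the enzyme that cleaves C3. The alternative pathway amplifies C3 cleavage through factor B, and both lead to a terminal complex that inserts into membranes. Most plasma complement is made by the liver, and connective tissue cells are known to make several components locally.

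Libraries held 6373713 to 10011920 counts, of which the 9 genes took 0.671% to 0.907%. All 10 stromal markers were detected, with a summed level of 137223 to 184525 counts per 1000000 (CPM). Macrophage and myeloid markers summed to 11.1 to 26.2 CPM and lymphocyte markers to at most 1.97 CPM. The replicates 1, 2 and 3 of PBS at 8 h carried 1.77% to 2.45% of their counts in the gene model Gm10800, against 0.536% to 1.01% elsewhere. The 4 libraries with the most detected genes were PBS at 4 h replicate 4, PBS at 8 h replicates 1 and 4 and CGRP at 4 h replicate 3. The summed stromal markers ran from 160872 to 184525 CPM after PBS and from 143630 to 150925 CPM after CGRP at 4 h, and from 160681 to 173842 CPM and 137223 to 156468 CPM at 8 h, so that the groups were apart at both times. In bulk libraries such as these, fewer cells of a type and less RNA per cell cannot be told apart.

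Per length of exon, Serping1 stood far above the other genes, with 2026 ± 189 CPM per kb (SD over the 16 libraries). It encodes C1 inhibitor, which blocks C1r and C1s. C1s1 followed with 315 ± 28.9 CPM per kb and C3 with 283 ± 83.8, and these neighbours were not separated, since C1s1 was above C3 in 11 of 16 libraries. Their order changed by group: in CGRP at 4 h C3 was above, and in PBS at 4 h each was above in 2 of 4 libraries. C1ra stood at 153 ± 15.6 CPM per kb. The level of C7 was 46.9 ± 10.5 and that of Clu 39.1 ± 14.7 CPM per kb, with C7 above in 9 of 16 libraries. C4b lay at 18.7 ± 6.93, C2 at 9.29 ± 2.20 and Cfb at 7.97 ± 1.86 CPM per kb, and C2 was above Cfb in 11 libraries. Here too the order of group means changed: in CGRP at 4 h Clu, at 21.7 CPM per kb, lay below C4b, at 24.9, and Cfb above C2, and in CGRP at 8 h Clu, at 37.6, lay above C7, at 34.4. The order of C2 and Cfb depends on the length used. Both lie on the minus strand of chromosome 17, and the gene model Gm20547, listed at 0 counts, covers 42.8% of the exon bases of C2 and 79.5% of those of Cfb. Per length of exon that no other gene shares, C2 stood at 17.5 and Cfb at 38.9 CPM per kb.

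**Figure D1:**
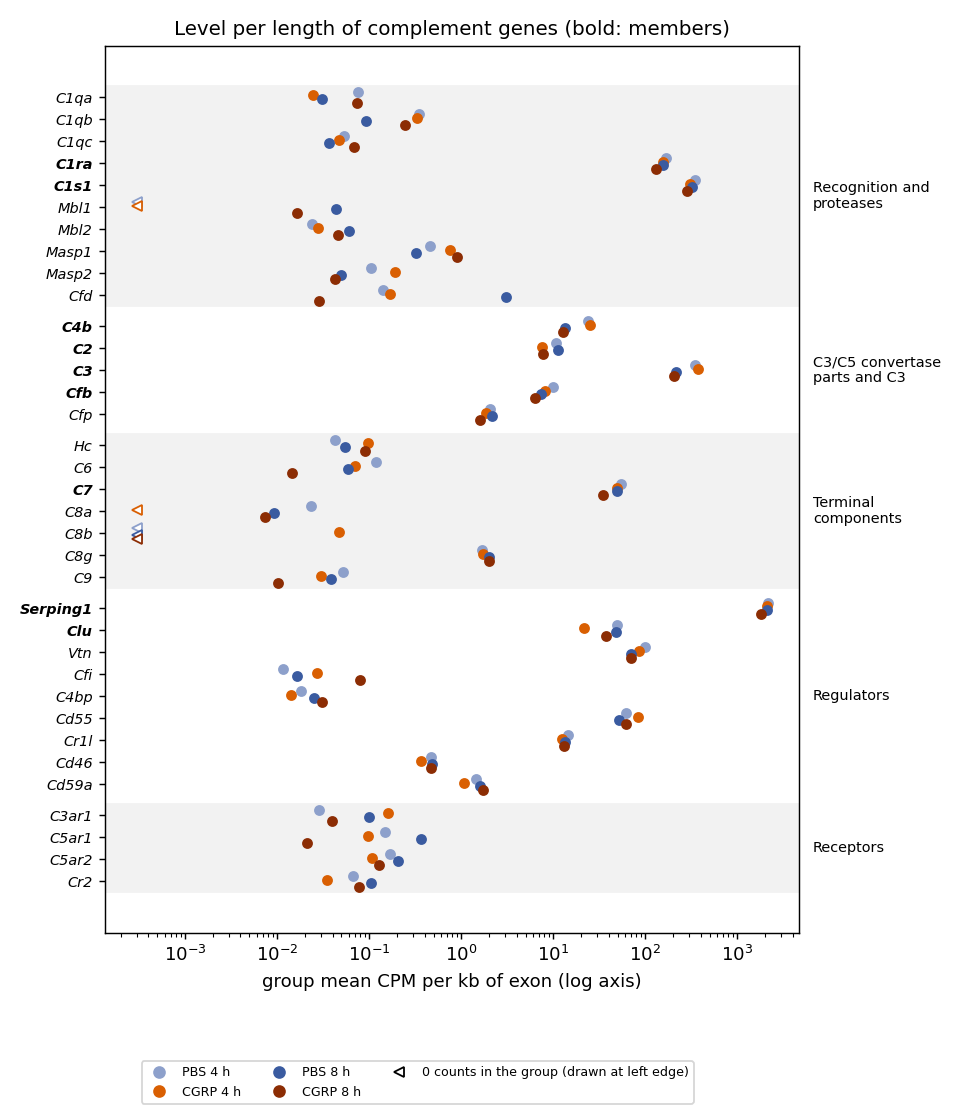
Mean level of each group in CPM per kb of exon (log axis) for the 9 genes, in bold, and other complement genes, arranged by role. Points are the 4 groups, and triangles mark groups with 0 counts. The genes for C1q, the lectins Mbl1 and Mbl2, the later terminal components and the anaphylatoxin receptors lie far to the left of C1ra, C1s1, C3 and Serping1.

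The rest of the cascade was unevenly present. Among 51 other complement genes chosen by role, 17 had enough reads to be tested and 34 did not. The subunits of C1q, the recognition molecule that C1r and C1s act with, had 8 (C1qa), 38 (C1qb) and 14 (C1qc) counts over all 16 libraries. Of the terminal genes, Hc, which encodes C5, had 57 counts, C6 31, C8a 5, C8b 4 and C9 11. C8g, a subunit of C8, had 363 counts with reads in 16 of 16 libraries, and C7 had at least 469 counts in each library. The receptor genes C3ar1, C5ar1 and C5ar2 had 45, 49 and 72 counts. Surface and soluble regulators were well represented, with 41702 counts of Cd55, 18226 of Cr1l and 21762 of Vtn. These sums are counts per gene without correction for length.

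After CGRP, 2 of the 9 genes fell at 4 h, C2 and Clu, and 2 at 8 h, C1ra and C2, and no member rose at either time. Falling genes were 8.37% of all genes tested at 4 h and 3.67% at 8 h. Genes called in either direction were 16.2% and 8.67%. Over the mean of both times, 5 of 9 fell, C1ra, C1s1, C2, C7 and Clu, where 10.8% of all genes fell and 21.6% changed in either direction. The members' median log2 fold change was -0.16 at 4 h and -0.22 at 8 h, against 0.00 and -0.02 over all genes tested. Fold changes were below 0 for 7 of 9 members at 4 h, where 7005 of 13949 genes tested were. At 8 h they were below 0 for 9 of 9, where 7304 of the genes tested were. Those of C3 (-0.08) and C4b (-0.10) at 8 h changed sign under some alternatives. Leaving out the 4 libraries with the most detected genes left 1 fall at 4 h, 0 at 8 h and 2 over both times. At 8 h, leaving out the 3 PBS libraries high in Gm10800 also left 0, and upper-quartile scaling gave 4. Of all calls at 8 h, 42.3% were falls with TMM scaling and 55.0% with upper-quartile scaling.

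**Figure D2:**
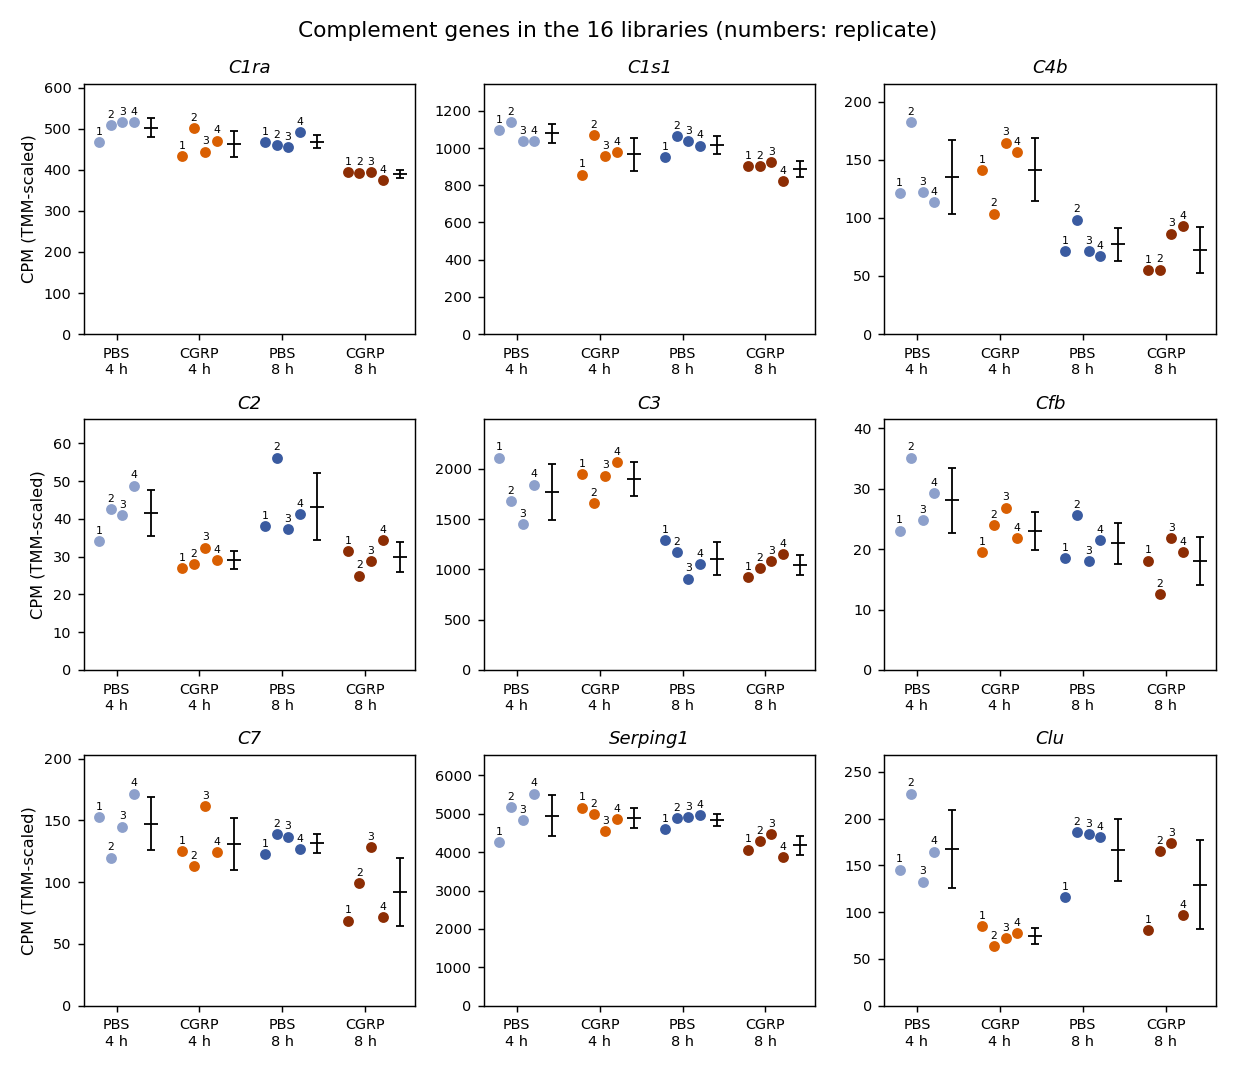
Level of each gene in CPM in every library (points) with the mean and SD of each group, by treatment and time. Separation between PBS and CGRP is complete for Clu and C2 at 4 h and for C1ra, C1s1, C2 and Serping1 at 8 h, and the levels of C3 and C4b at 8 h lie below all those at 4 h.

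C1ra and C1s1 encode the mouse forms of the classical pathway proteases C1r and C1s. They lie close together on chromosome 6, C1ra at chr6:124512405-124523443 on the plus strand and C1s1 at chr6:124530345-124542359 on the minus strand (mm10, GENCODE M21). At 8 h, C1ra was at 468, 461, 454 and 491 CPM after PBS and at 395, 393, 395 and 376 CPM after CGRP. The groups were apart, and the CGRP libraries agreed within a narrow band. C1ra fell by 0.27 ± 0.07 on the log2 scale (SE), a change of -16.9%, with an adjusted p of 0.0180 from edgeR's quasi-likelihood test with Benjamini-Hochberg adjustment. The call was lost without PBS replicate 1 (adjusted p 0.0578), PBS replicate 4 (0.0733) or CGRP replicate 4 (0.0775) in the same test, and without the filter on low counts (0.132). At 4 h the values were 468, 509, 517 and 516 CPM after PBS and 433, 502, 444 and 471 CPM after CGRP, which overlapped, with a log2 fold change of -0.12 ± 0.07 that was not called (edgeR adjusted p 0.269).

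C1s1 varied within a group by 4.67% to 9.09% (SD as a percent of the mean). After PBS at 8 h it was at 952, 1066, 1037 and 1013 CPM, and after CGRP at 903, 902, 924 and 821 CPM. The groups did not overlap, yet the log2 fold change of -0.20 ± 0.07 was not called (edgeR adjusted p 0.109). At 4 h it was at 1098, 1141, 1036 and 1039 CPM after PBS and 857, 1071, 955 and 979 CPM after CGRP, with overlap and a log2 fold change of -0.16 ± 0.07 (edgeR adjusted p 0.158). Over both times C1s1 fell by 0.18 ± 0.05 on the log2 scale (edgeR adjusted p 0.0177) and C1ra by 0.19 ± 0.05 (0.00599). The fall of C1s1 was lost on leaving out any of 4 libraries (CGRP at 4 h replicate 1, PBS at 8 h replicate 2 or 3, CGRP at 8 h replicate 4), with adjusted p of 0.0516 to 0.0640 in edgeR, and that of C1ra on leaving out none of the 16. Without the filter on low counts neither was called (edgeR adjusted p 0.0716 for C1s1 and 0.0669 for C1ra). Both calls were also lost without the 4 libraries with the most detected genes (edgeR adjusted p 0.0574 for C1s1 and 0.117 for C1ra).

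Both proteases have a near-identical mouse copy farther along chromosome 6, C1rb (chr6:124570294-124581171) and C1s2 (chr6:124624625-124636085). The windows below show where reads can tell each pair apart. Capitals mark the bases that differ, positions are counted along the longest transcript of each gene, and the sequences come from GENCODE M21. The windows hold 8 and 13 differences and were taken where differences are dense, within the coding parts of C1ra and C1s1.
C1ra, bases 2183 to 2227: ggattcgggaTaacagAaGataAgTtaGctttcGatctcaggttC
C1rb, bases 1949 to 1993: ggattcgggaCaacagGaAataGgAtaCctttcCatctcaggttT
C1s1, bases 1723 to 1767: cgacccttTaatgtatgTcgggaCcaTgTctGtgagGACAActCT
C1s2, bases 1497 to 1541: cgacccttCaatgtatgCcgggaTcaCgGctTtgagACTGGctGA
Over the aligned longest transcripts C1ra and C1rb were 97.98% identical and C1s1 and C1s2 95.94%. C1rb had 47 counts and C1s2 84 over all libraries, against at least 2456 for C1ra and 5369 for C1s1 in any single library. With reads of 25 bases, 60.2% of the 25-base words of C1ra also occur in C1rb and 39.6% of those of C1s1 in C1s2, and the sources used here do not say how reads that fit both were counted. An antisense gene, Gm16567, covers 18.4% of the exon bases of C1s1 and is listed at 0 counts. The kit does not mark the strand.

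Promoters are shown for C1ra and C1s1, which fell together over both times, and for C3, which fell with time. RefSeq (GRCm38.p6) gave a window of 250 bases before to 50 after the start for 4 of the 9 genes, these and C7. Capitals mark matches to fixed motifs on either strand.
C1ra, chr6:124512371-124512670, plus strand: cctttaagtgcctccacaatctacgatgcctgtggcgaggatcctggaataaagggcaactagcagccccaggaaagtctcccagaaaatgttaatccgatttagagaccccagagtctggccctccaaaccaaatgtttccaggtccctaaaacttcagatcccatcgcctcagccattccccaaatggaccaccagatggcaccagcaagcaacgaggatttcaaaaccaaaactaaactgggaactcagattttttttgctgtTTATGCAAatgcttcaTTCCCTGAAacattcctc
C1s1, chr6:124542310-124542609, minus strand: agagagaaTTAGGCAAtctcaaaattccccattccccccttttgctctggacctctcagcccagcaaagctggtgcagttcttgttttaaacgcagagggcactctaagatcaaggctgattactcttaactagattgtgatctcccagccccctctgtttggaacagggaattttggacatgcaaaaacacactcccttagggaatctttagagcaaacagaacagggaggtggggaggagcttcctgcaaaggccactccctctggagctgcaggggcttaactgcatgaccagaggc
C3, chr17:57228087-57228386, minus strand: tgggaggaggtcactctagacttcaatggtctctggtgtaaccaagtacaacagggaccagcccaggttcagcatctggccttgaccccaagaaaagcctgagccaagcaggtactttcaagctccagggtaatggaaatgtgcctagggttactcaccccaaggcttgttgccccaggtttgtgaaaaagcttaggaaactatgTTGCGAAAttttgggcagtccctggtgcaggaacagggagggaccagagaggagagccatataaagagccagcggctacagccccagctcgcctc
The motifs searched on both strands were the C/EBP core TTGCNNAA, the GAS element TTCNNNGAA and the ISRE core GAAANNGAA. Also searched were the cyclic AMP response element TGACGTCA, the kappaB site and the CCAAT box CCAAT. C/EBP and GAS are sites of factors known to act on acute phase and interferon-induced genes. C1ra had a C/EBP match starting 16 bases and a GAS match starting 32 bases after the start, C1s1 a C/EBP match at position -242 from it, and C3 a C/EBP match at position -45. These positions count from the RefSeq start. GENCODE M21 begins C1ra at chr6:124512405, within its printed window and before the RefSeq start. By that annotation both C1ra matches lie farther inside the gene. A second listed start of C1s1 had 0 matches, and C7 had a GAS match at position -164 and an ISRE core match at position 8 from its start. None of the 4 genes had a match to the cyclic AMP response element, the kappaB site or the CCAAT box. Such matches are common by letters alone: of 32851 promoters of the same length, 10.8% held the C/EBP core, 8.30% GAS and 8.56% the ISRE core. The cyclic AMP element was in 1.79%, the kappaB site in 8.46% and the CCAAT box in 37.4%.

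C2, the protease that joins C4b in the classical C3 convertase, was lower at both times. After PBS at 4 h it was at 34.1, 42.6, 40.9 and 48.8 CPM, and after CGRP at 27.0, 27.9, 32.4 and 29.1 CPM. At 8 h the values were 38.2, 56.2, 37.2 and 41.4 CPM after PBS and 31.4, 25.02, 28.7 and 34.4 CPM after CGRP. At each time every CGRP library lay below every PBS library. C2 fell by 0.52 ± 0.14 at 4 h (-30.2%, edgeR adjusted p 0.0142) and by 0.53 ± 0.14 at 8 h (-31.0%, 0.0206) on the log2 scale. Over both times the fall was 0.53 ± 0.10 (edgeR adjusted p 5.63e-04), and it was called under all 23 alternatives. The single-time calls leaned on single libraries: at 4 h the log2 fold change was -0.43 without PBS replicate 4 (edgeR adjusted p 0.0598) and -0.47 without CGRP replicate 1 (0.0521). At 8 h it was -0.37 without PBS replicate 2 (edgeR adjusted p 0.106) and -0.44 without CGRP replicate 2 (0.0759). C2 lies at chr17:34862604-34898265 (mm10), and 46.9% of its exon bases are shared with Gm20547 or Zbtb12, which had 0 and 15 counts.

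C4b encodes C4, the partner of C2 in that convertase, and was not called after CGRP. It lies at chr17:34728380-34743882 (mm10, minus strand). At 4 h it was at 121, 183, 122 and 114 CPM after PBS and 141, 104, 165 and 157 CPM after CGRP, with a log2 fold change of 0.07 ± 0.21 (edgeR adjusted p 0.877). The groups overlapped at both times, and at 8 h the log2 fold change was -0.10 ± 0.21, with a 95% interval from -0.55 to 0.36. C4b has the near-identical mouse copy C4a on the same chromosome (chr17:34809092-34823464). The window below, from GENCODE M21 with differing bases in capitals, shows a stretch where differences are dense.
C4b, bases 2776 to 2820: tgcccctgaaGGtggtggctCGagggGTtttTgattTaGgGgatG
C4a, bases 2770 to 2814: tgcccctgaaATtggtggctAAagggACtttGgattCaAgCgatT
Along 5367 aligned bases the pair differed at 207, so that 53.9% of the 25-base words of C4b also occur in another gene. C4a had 114 counts over all libraries and was not called in the CGRP comparison at 4 h (log2 fold change 1.44, edgeR adjusted p 0.159). Adding the counts of C1rb, C1s2 and C4a to C1ra, C1s1 and C4b changed no count of members called.

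C3, on which all pathways converge and whose gene lies at chr17:57203970-57228136 (mm10, minus strand), was not called after CGRP at either time. At 4 h it was at 2112, 1677, 1450 and 1845 CPM after PBS and 1945, 1657, 1933 and 2065 CPM after CGRP. The libraries overlapped, and the log2 fold change was 0.10 ± 0.11, with a 95% interval from -0.13 to 0.33 (edgeR adjusted p 0.609). At 8 h it was -0.08 ± 0.11, with an interval from -0.32 to 0.15. Cfb (chr17:34856374-34862518, minus strand), the protease of the alternative pathway convertase, had the lowest counts of the 9 genes, 116 to 338 per library. Its log2 fold change was -0.29 ± 0.17 at 4 h (edgeR adjusted p 0.281) and -0.22 ± 0.18 at 8 h (0.517), with overlapping groups, and neither was called.

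C7 encodes the terminal component that anchors the forming lytic complex to the membrane, from chr15:4988762-5063740 (mm10, minus strand). After PBS at 8 h it was at 123, 139, 137 and 127 CPM, and after CGRP at 68.9, 99.1, 128 and 71.7 CPM. CGRP replicate 3 lay within the PBS range and the other three below it. The log2 fold change was -0.51 ± 0.17 and was not called (edgeR adjusted p 0.0657). Without CGRP replicate 3 it was -0.70 and called (0.00243), and DESeq2's Wald test also called it (adjusted p 0.0245). At 4 h the groups overlapped, with a log2 fold change of -0.17 ± 0.16 (edgeR adjusted p 0.559). Over both times C7 fell by 0.34 ± 0.12 (edgeR adjusted p 0.0464), a call lost on leaving out any of 13 of the 16 libraries, with adjusted p of 0.0542 to 0.0971 then.

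Clu and Serping1 are the regulators. Clu encodes clusterin, a secreted chaperone that binds the terminal complex and keeps it out of membranes. After PBS at 4 h it was at 146, 227, 133 and 165 CPM, and after CGRP at 84.8, 64.1, 72.2 and 77.7 CPM. The groups were far apart, with the highest CGRP library below the lowest PBS library. Clu fell by 1.16 ± 0.25 on the log2 scale, a change of -55.4% (edgeR adjusted p 0.00687), and the call held under all 16 alternatives, with adjusted p of 1.12e-04 to 0.0370. At 8 h it was at 116, 186, 183 and 180 CPM after PBS and 80.7, 166, 174 and 97.0 CPM after CGRP. CGRP replicates 2 and 3 lay within the PBS range and replicates 1 and 4 below it, which were also the lowest for C7. The log2 fold change was -0.36 ± 0.25 and was not called (edgeR adjusted p 0.439). Clu lies at chr14:65968483-65981547 and shares no 25-base word with another gene.

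Markers of pericytes and smooth muscle, another cell type that muscle digests can hold, were lower beside Clu at 4 h. All 8 of these markers had reads, none was at 0 throughout, and they summed to 135 to 184 CPM after PBS and 91.3 to 110 CPM after CGRP. Of the 7 tested, 2 fell at 4 h and 0 at 8 h. At 8 h all 8 summed to 162 to 218 CPM after PBS and 145 to 209 CPM after CGRP. Markers of other cells were lower beside C1ra and C2 at 8 h. The 8 endothelial markers summed to 109 to 131 CPM after PBS and 79.2 to 105.6 CPM after CGRP, which did not overlap. Only 1 of them had enough reads to be tested, and it was not called. Cldn5 was at 0 in the CGRP libraries. The 8 myogenic markers summed to 131 to 217 CPM and 88.5 to 136 CPM, which overlapped. Of the 4 tested, 1 was called lower, and Myf5 was at 0 in both groups. At 4 h, 1 of the 4 tested Schwann cell markers was called lower. All 6 summed to 8.33 to 14.2 CPM after PBS and 8.53 to 12.3 CPM after CGRP. Of the 10 stromal markers, 5 fell and 1 rose at 4 h, and 3 fell and 1 rose at 8 h. The part of any of these in the levels of Clu, C2 or C1ra was not tested.

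Serping1, at chr2:84765387-84775444 (mm10, minus strand), was the most abundant member. At 8 h it was at 4607, 4881, 4903 and 4963 CPM after PBS and 4067, 4287, 4465 and 3873 CPM after CGRP. The groups did not overlap, and the log2 fold change of -0.21 ± 0.08 was not called (edgeR adjusted p 0.0924), though it was with upper-quartile scaling (0.0456). At 4 h the groups overlapped, with a log2 fold change of -0.02 ± 0.08 and a 95% interval from -0.18 to 0.14.

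**Figure D3:**
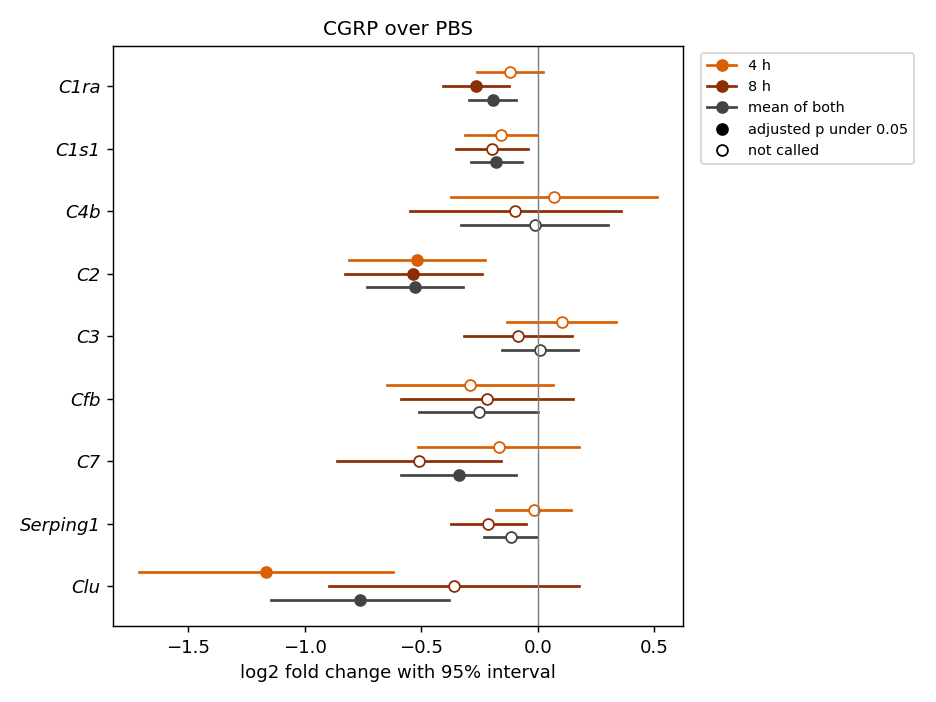
Log2 fold change of CGRP over PBS for each gene at 4 h, at 8 h and as the mean of both, with its 95% interval. Points are filled where the adjusted p was under 0.05. Clu at 4 h is farthest to the left at -1.16, C2 is near -0.52 at both times, and the intervals of C3 and C4b include 0 at both.

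The effect of CGRP was not shown to differ between times for any member. The 8 h effect minus the 4 h effect was called for 0 of 9 genes by edgeR, where 1.12% of all genes tested were called in either direction. At an unadjusted p under 0.05 it was 1 of 9, Clu, where 14.3% of all genes tested had such a p, and DESeq2 also called 0. For Clu the difference was 0.80 ± 0.35 on the log2 scale (edgeR adjusted p 0.313), and for C2 it was -0.02 ± 0.20 (0.983).

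With time, C3 and C4b were lower whatever was injected. After PBS, 1 of 9 genes fell from 4 h to 8 h, C3, where 0.251% of all genes tested fell. After CGRP, 3 of 9 fell, C1ra, C3 and C4b, where 3.05% did. No member rose with time. The members' median log2 fold change was -0.10 after PBS and -0.25 after CGRP, against 0.00 and -0.01 over all genes tested. These comparisons use the same 16 libraries as the CGRP comparisons.

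C3 after PBS went from 1450 to 2112 CPM at 4 h to 909 to 1290 CPM at 8 h, where the single libraries were at 1290, 1168, 909 and 1057 CPM. It fell by 0.68 ± 0.11 on the log2 scale, a change of -37.5% (edgeR adjusted p 0.00656), and was the 10th of all genes tested by p. After CGRP the libraries at 8 h were at 921, 1015, 1081 and 1154 CPM, and C3 fell by 0.87 ± 0.11, a change of -45.1% (edgeR adjusted p 5.49e-05). In both treatments all 8 h libraries lay below all 4 h libraries, and both calls held on leaving out any 1 library. Without the 3 PBS libraries high in Gm10800, 1 PBS library remained at 8 h, and the log2 fold change after PBS was -0.75 (edgeR adjusted p 0.109). Macrophages are another known source of C3, and their 10 markers summed to 19.0 CPM after PBS and 18.2 after CGRP at 4 h, and to 13.8 and 14.5 CPM at 8 h, as group means, with no marker at 0 in all libraries and 0 of the 4 tested called with time. The part of these cells in the level of C3 was not tested.

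C4b was also lower at 8 h in every library. After PBS at 8 h it was at 71.5, 98.6, 71.2 and 67.3 CPM and after CGRP at 54.8, 55.5, 86.3 and 92.7 CPM. It fell by 0.97 ± 0.21 after CGRP, a change of -49.0% (edgeR adjusted p 0.0112), and without the 4 libraries with the most detected genes the adjusted p was 0.0506. After PBS the log2 fold change was -0.81 ± 0.21 and was not called (edgeR adjusted p 0.110), while DESeq2 called it (adjusted p 0.00461). C1ra fell by 0.25 ± 0.07 after CGRP (edgeR adjusted p 0.0293), from 433 to 502 CPM at 4 h to 376 to 395 CPM at 8 h. That call was lost on leaving out CGRP at 4 h replicate 2 or 4 or CGRP at 8 h replicate 2, 3 or 4, with adjusted p of 0.0671 to 0.113. It was also lost with no filter on low counts (edgeR adjusted p 0.188), with only the libraries compared (0.0862) and without the 4 libraries with the most detected genes (0.0607). C7 after CGRP had a log2 fold change of -0.51 ± 0.17 that was not called (edgeR adjusted p 0.0759). It was called by DESeq2 (adjusted p 0.0241), with no filter (2.76e-04 in edgeR) and without CGRP at 8 h replicate 3 (0.00351). Of the marker lists, 4 of 10 stromal markers and 2 of the 7 tested pericyte and smooth muscle markers were called with time after CGRP. After PBS 1 of each was called, and these counts take in either direction. The stromal sum ran from 143630 to 150925 CPM at 4 h and from 137223 to 156468 CPM at 8 h after CGRP. That of pericytes and smooth muscle was higher at 8 h after CGRP, at 145 to 209 CPM against 91.3 to 110 CPM. After PBS it was 135 to 184 CPM at 4 h and 162 to 218 CPM at 8 h. The part of these markers' cells in the levels of the members was not tested. Clu went the other way after CGRP, with a log2 fold change of 0.79 ± 0.25 that was not called (edgeR adjusted p 0.0796) and was called by DESeq2 (0.0215). For C2 the log2 fold changes with time were 0.05 after PBS and 0.04 after CGRP, neither called.

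**Figure D4:**
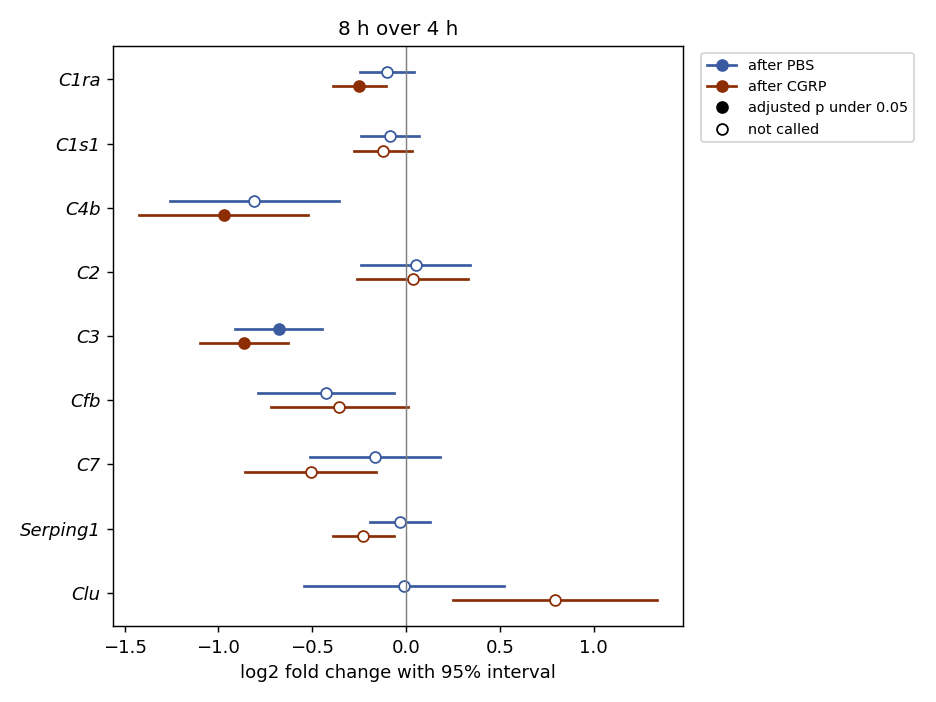
Log2 fold change of 8 h over 4 h for each gene after PBS and after CGRP with its 95% interval, filled where the adjusted p was under 0.05. C3 and C4b lie to the left in both treatments, and Clu after CGRP lies to the right at 0.79 without being called.

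Other complement genes moved in both directions after CGRP. Of the 17 tested, 2 rose and 2 fell at 4 h, 1 rose and 2 fell at 8 h, and 3 rose and 3 fell over both times, with median log2 fold changes of -0.05, -0.05 and -0.13. The shares over all genes tested, in either direction, are the 16.2%, 8.67% and 21.6% given above. Colec12, a membrane-bound collectin of the recognition class, fell from 409 to 285 CPM at 4 h and from 493 to 304 CPM at 8 h (group means), by 0.52 ± 0.12 and 0.70 ± 0.12 on the log2 scale (edgeR adjusted p 0.00582 and 0.00143). Among the surface regulators, Cd55, which speeds the decay of C3 convertases, rose from 299 to 401 CPM at 4 h (log2 fold change 0.42 ± 0.11, edgeR adjusted p 0.00765). Cr1l, the rodent convertase regulator also called Crry, fell from 151 to 130 CPM at 4 h (-0.22 ± 0.07, 0.0490). C1qbp, which binds C1q and sits mainly in mitochondria, rose from 81.7 to 142 CPM at 4 h and from 76.0 to 122 CPM at 8 h (edgeR adjusted p 0.00390 and 0.0186). Lrp1, an endocytic receptor with many ligands, fell from 1820 to 1533 CPM at 8 h (edgeR adjusted p 0.0203). Over both times the lectin pathway protease gene Masp1 rose by 1.12 ± 0.34 (edgeR adjusted p 0.0263), and the C1r-like gene C1rl fell by 0.33 ± 0.10 (0.0171). Masp1 was low, at group means of 4.45 CPM after PBS and 7.37 CPM after CGRP at 4 h. At 8 h these were 3.19 and 8.78 CPM, and the PBS libraries ran from 0.941 to 6.88 CPM. Neither gene was called at 4 h or 8 h alone (edgeR adjusted p 0.334 and 0.0703 for Masp1, 0.0807 and 0.191 for C1rl). With time, Vtn fell after PBS (-0.50 ± 0.10, edgeR adjusted p 0.0205) and Cd55 after CGRP (-0.41 ± 0.11, 0.0198).

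The genes whose levels tracked each member most closely over the 16 libraries were found by the root mean square difference of centred log2 CPM. For C2 they were Gstm5, Itih5 and Podn, at 0.16 to 0.18, where C2 itself varied by 0.31. For Clu they were Boc, Meox2 and St6galnac2, at 0.24 to 0.28 with a variation of 0.57. C1ra was nearest to Paip2, Cpq and C1s1, the last at 0.08, and C1s1 to Crtap, Ctsd and Sdf4. C4b was nearest to Ifi27l2a, Cd38 and C3, the last at 0.27, with a variation of 0.53. C3 was nearest to Unc45b, Sat1 and Dbi, and C7 to Pot1a, Ace and Man2b2. C1s1 and C3 appear among the nearest genes of another member. The libraries share depth and group, and the measure is a description with no test.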

How the data were processed

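RNA of 16 libraries was measured, 4 in each of 4 groups. Per the labels' protocols, oligo(dT)-primed cDNA was made into Nextera XT libraries and sequenced on a NextSeq500 with paired 25-base reads. The authors deposited raw read counts per gene, made per the submitters' processing notes with STAR 2.5.4, featureCounts and the build mm10. The sources used here state neither the annotation nor the strand setting nor how multimapping reads were handled. All 16 columns were used, and 0 columns were left out. No 2 replicates were the same library (chi-square per degree of freedom 6.52 to 22.7 over 24 pairs).

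Counts were filtered with filterByExpr (13949 genes, 99.7% of counts), scaled with TMM and fitted with edgeR 4.0.16 in R 4.3.3, 1 mean per group, robust quasi-likelihood, 12 residual degrees of freedom. Tests were two-sided, adjusted over all genes tested by the Benjamini-Hochberg method, and calls needed an adjusted p under 0.05 and no minimum fold; rose and fell stand for calls. Errors of log2 fold changes are SE. CPM divides counts by TMM-scaled library sizes. The fit was tested on simulated data. Alternatives were DESeq2 1.42.0, other scalings, no filter, a replicate block, near-identical copies summed, and libraries left out singly and together. Leaving out the 3 PBS libraries high in Gm10800 was chosen after seeing the data.

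The members and lists were chosen with earlier results of these data known. By rule all 9 members are named, other complement genes called in a CGRP comparison, the copies C1rb, C1s2 and C4a, and the 3 nearest genes of each called member, leaving out unnamed gene models. Vtn, the called gene with time outside that rule, and the counts of genes under the filter were chosen after their values were seen. One further complement gene is not reported here. Positions are from GENCODE M21. Reads are PCR copies without molecular identifiers. In the main fit, p-values weigh a difference against the spread between replicates within groups, estimated over all 4 groups together. The labels call these replicates biological.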

Additional observations from a re-analysis of the deposited data

Results flagged for a closer look

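Of 36 groups of 4 libraries (9 genes in 4 groups), 5 held a library far from the others by Dixon's test, where chance gives 1 in 20, or 1.8. C1ra after PBS at 4 h was lowest in replicate 1, at 467.8 CPM against 509 to 517 in the others. After CGRP at 8 h C1ra was lowest in replicate 4, at 375.6 CPM against 393 to 395. C4b was highest in replicate 2 in both PBS groups, at 182.5 CPM against 114 to 122 at 4 h and at 98.55 CPM against 67.3 to 71.5 at 8 h. Clu after PBS at 8 h was lowest in replicate 1, at 116.3 CPM against 180 to 186. Without that library the log2 fold change of Clu after CGRP at 8 h was not called either.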

How the results depend on the processing

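The counts were lowest for Cfb, at 116 to 338 per library. Of 801 fold changes of single genes recomputed (45 results, 25 settings), 703 kept direction and side of the threshold, 45 lost the call, 17 gained it and 36 changed sign. No sign change touched a called value, and the cause was not tested. The difference of the 8 h and 4 h effects was called for 0 members under all settings.

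The count of members called at 4 h (2) was 1 without the 4 libraries with the most detected genes and 1 to 2 on leaving out 1 library. At 8 h (2) it was 4 with upper-quartile scaling, 0 without those 4 libraries, 0 without the 3 PBS libraries high in Gm10800, and 1 to 3 on leaving out 1 library. Over both times (5) it was 3 with no filter, 2 without the 4 libraries and 3 to 5 on leaving out 1. With time after CGRP (3) it was 6 in DESeq2, 1 without the 4 libraries and 2 to 4 on leaving out 1. After PBS (1) it was 2 with no filter, in DESeq2 and with the libraries compared alone, 0 without the 3 libraries, and 1 on leaving out any 1. Other complement genes called at 8 h (3) were 5 with no filter, 1 without the 4 libraries, 1 without the 3, and 1 to 3 on leaving out 1. Over both times (6) they were 3 without the 4 libraries.

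Sign changes without the 4 libraries were C3 at 8 h (0.014), C4b at 4 h (-0.084), Serping1 at 4 h (0.077), and with time after PBS Clu (0.13) and Serping1 (0.039). Without the 3 libraries they were C4b at 8 h (0.11), and with time after PBS C2 (-0.014), Clu (0.099) and Serping1 (8.73e-04). Over both times C3 was -0.032 with upper-quartile scaling and C4b 1.26e-04 with no filter. Leaving out 1 library gave ranges across 0 for C2 with time (-0.092 to 0.14 after PBS, -0.032 to 0.12 after CGRP), C3 (-0.16 to 0.0076 at 8 h, -0.023 to 0.067 over both), C4b (-0.0018 to 0.25 at 4 h, -0.23 to 0.050 at 8 h, -0.074 to 0.078 over both), Clu with time after PBS (-0.10 to 0.17) and Serping1 (-0.071 to 0.045 at 4 h, -0.092 to 0.022 with time after PBS).

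Same-numbered replicates deviated together weakly at most (correlations -0.03 to 0.09 over 16 pairs, 0 over 0.1). Yet 4 of 4 PBS libraries at 4 h correlated best with the same number at 8 h, at 0.016 to 0.049. For CGRP at 4 h against 8 h this held for 2 of 4, and for PBS against CGRP for 1 of 4 at each time. Whether the numbers pair the samples was not settled by this check. With the replicate number as a block the members called were 2 at 4 h, 3 at 8 h, 5 over both times, 4 with time after CGRP and 1 after PBS.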
